A study of Mus musculus with 6 samples.

Results

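Retinoid and thyroid hormone handling genes were followed in the hippocampus (HIPP) of mice treated with methamphetamine (MA). The set was given by gene symbol, and it was chosen with earlier results of these data known. It holds the retinol carrier Rbp4, the retinol uptake receptor Stra6, the retinaldehyde dehydrogenases Aldh1a1 and Aldh1a2, the thyroid hormone transporter Slco1c1, the deiodinase Dio2 and the thyroid hormone receptors Thra and Thrb. All 8 of the 8 genes were found, each on 1 row, among 16060 rows of the deposited table. HIPP RNA was sequenced from 3 saline-treated mice (Control) and 3 MA-treated mice (MA), with 1 library per mouse. All were adult male C57BL/6 mice of no stated genetic modification, and no exact age is given. Control mice were given saline into the peritoneum, and MA mice were given MA at a dose that was raised weekly. The samples were bulk tissue, so a lower level of a transcript in fewer cells and less transcript per cell cannot be told apart.

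Retinol travels in blood bound to RBP4, which itself binds transthyretin (TTR), and STRA6 takes retinol from RBP4 into cells. Cells oxidise retinol to retinaldehyde, and the ALDH1A enzymes then make retinoic acid, which acts through nuclear receptors (RAR with RXR). Thyroxine enters the brain through transporters of vessels, glia and the choroid plexus, among them OATP1C1, the product of Slco1c1. In the brain DIO2, found mainly in astrocytes and tanycytes, converts thyroxine to the active hormone T3, and DIO3 inactivates both. T3 binds the receptors encoded by Thra and Thrb, which also pair with RXR, so both hormone systems share a partner.

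Values are log2 of RPKM (reads scaled by gene length and by sequencing depth) plus 1, and they are given per gene length, so levels of different genes may be compared. Tests were made with limma over 13321 genes with an RPKM of at least 0.5 in at least 3 libraries, and a gene is called when its Benjamini-Hochberg adjusted p is under 0.05. The lowest RPKM of the 8 genes in any library was 1.31, so none of them passed the filter through 1 group alone. Depth is unknown, since the table gives no read totals. The libraries also hold nearly the same set of values, as quantile normalization would leave them, so the values are not plain RPKM. The mean Pearson correlation across genes with the other libraries of its own group was 0.978 for MA replicate 3 and between 0.984 and 0.993 for the other 5 libraries. MA replicate 3 listed no gene at 0, where the others listed 259 to 437. Its lowest log2 value was 0.000206, and unrelated genes such as Stra6l and Adh7 had the same rounded value there. A gene that is not at 0 in MA replicate 3 is thus not shown to be detected. Results are given with and without MA replicate 3 where it matters. Markers of the choroid plexus epithelium, the tissue that secretes cerebrospinal fluid and makes TTR, were higher in MA for 16 of 16 genes, 7 of them called, with a median log2 difference of 1.63. Markers of red blood cells were higher for 5 of 5 genes, with the globin genes Hba-a1, Hba-a2 and Hbb-bs called. Markers of hippocampal neurons were present in every library, with 8 of 9 lower in MA and none called (limma, with 2 at an unadjusted p under 0.05).

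Promoters were read from RefSeq windows (GRCm38.p6), with 13 windows for 7 of the 8 genes. Thra had no window, so its promoter was not read. The sequences of 250 bases upstream of a start site are shown for 3 of the 13 windows. Shown are Dio2 and Aldh1a1, whose Control and MA libraries did not overlap, and Thrb, which has a receptor motif. Capitals mark TGACGTCA, the cAMP response element bound by CREB, or its shorter form TGACG, or AGGTCA, the motif that thyroid hormone and retinoic acid receptors share. All are written 5′ to 3′ on the strand of the gene. Dio2 lies at chr12:90739039-90739288 (minus strand), the downstream Aldh1a1 start site at chr19:20601718-20601967 (plus strand) and Thrb at chr14:17660710-17660959 (plus strand).
Dio2: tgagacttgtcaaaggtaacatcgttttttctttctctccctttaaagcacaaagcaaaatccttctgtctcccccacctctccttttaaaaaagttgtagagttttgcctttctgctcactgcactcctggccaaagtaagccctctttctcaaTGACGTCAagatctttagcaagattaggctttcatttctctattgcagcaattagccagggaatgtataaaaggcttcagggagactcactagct
Aldh1a1: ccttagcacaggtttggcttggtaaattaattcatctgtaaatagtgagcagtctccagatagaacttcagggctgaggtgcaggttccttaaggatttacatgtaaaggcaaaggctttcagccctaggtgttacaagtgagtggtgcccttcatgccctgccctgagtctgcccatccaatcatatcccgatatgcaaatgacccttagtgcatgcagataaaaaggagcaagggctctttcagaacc
Thrb: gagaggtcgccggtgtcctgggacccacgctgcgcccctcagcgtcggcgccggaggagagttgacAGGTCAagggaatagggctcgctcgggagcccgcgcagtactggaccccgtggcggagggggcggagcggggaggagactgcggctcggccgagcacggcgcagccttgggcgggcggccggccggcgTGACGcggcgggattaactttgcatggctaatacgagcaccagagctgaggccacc

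On both strands, the Dio2 window held TGACGTCA 95 bases before the start site, and 1.55% of 32851 windows of the same length hold that motif. That start site is the RefSeq one. The Dio2 gene coordinates given below, from GENCODE, begin further downstream, at chr12:90738438 on the minus strand. TGACG lies within TGACGTCA and was thus also counted at Dio2. It was found at Thrb and at 1 of the 2 Rbp4 windows, beside 17.8% of all windows. AGGTCA was found at Thrb alone among the 13 windows, and 14% of all windows hold it. The pairs of this motif spaced by 4 or 5 bases, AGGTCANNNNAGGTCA and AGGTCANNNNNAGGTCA, were in none of the 13 windows and in 0.0152% and 0.00913% of all windows. A match describes these letters only, and a window without a match says nothing about binding elsewhere.

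In order of level over the 6 libraries, Thra came first with 416 to 551 RPKM, which was at the 98.8th percentile of the tested genes. Aldh1a1 followed with 20.2 to 29.6 RPKM and Slco1c1 with 16.3 to 20.1 RPKM. Each of these 3 genes was above the next one in level in 6 of the 6 libraries. Dio2 (7.10 to 13.5 RPKM) and Rbp4 (6.70 to 13.7 RPKM) changed places between libraries, with Dio2 above Rbp4 in 4 of 6. Thrb (3.02 to 4.39 RPKM) and Stra6 (2.75 to 4.04 RPKM) did the same, with Thrb above Stra6 in 3 of 6. Aldh1a2 was lowest in every library, with 1.31 to 2.58 RPKM.

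None of the 8 genes was called (limma), where 0.263% of all tested genes were, and 1 of them, Dio2, had an unadjusted p under 0.05, where 10.4% of all tested genes had. Of the 8, 3 were higher and 5 lower in MA, with a median log2 difference of -0.08 beside -0.010 over all tested genes. The MA libraries lay entirely below the Control libraries for 2 of the 8, Dio2 and Aldh1a1, and entirely above for none. Among all tested genes the groups did not overlap for 17.5%, with 10.2% lower and 7.32% higher in MA. The count of called genes among the 8 was 0 under each of the 14 alternatives tried. Among these, median centring and quantile normalization could change little, since the libraries already hold nearly the same set of values.

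**Figure D1:**
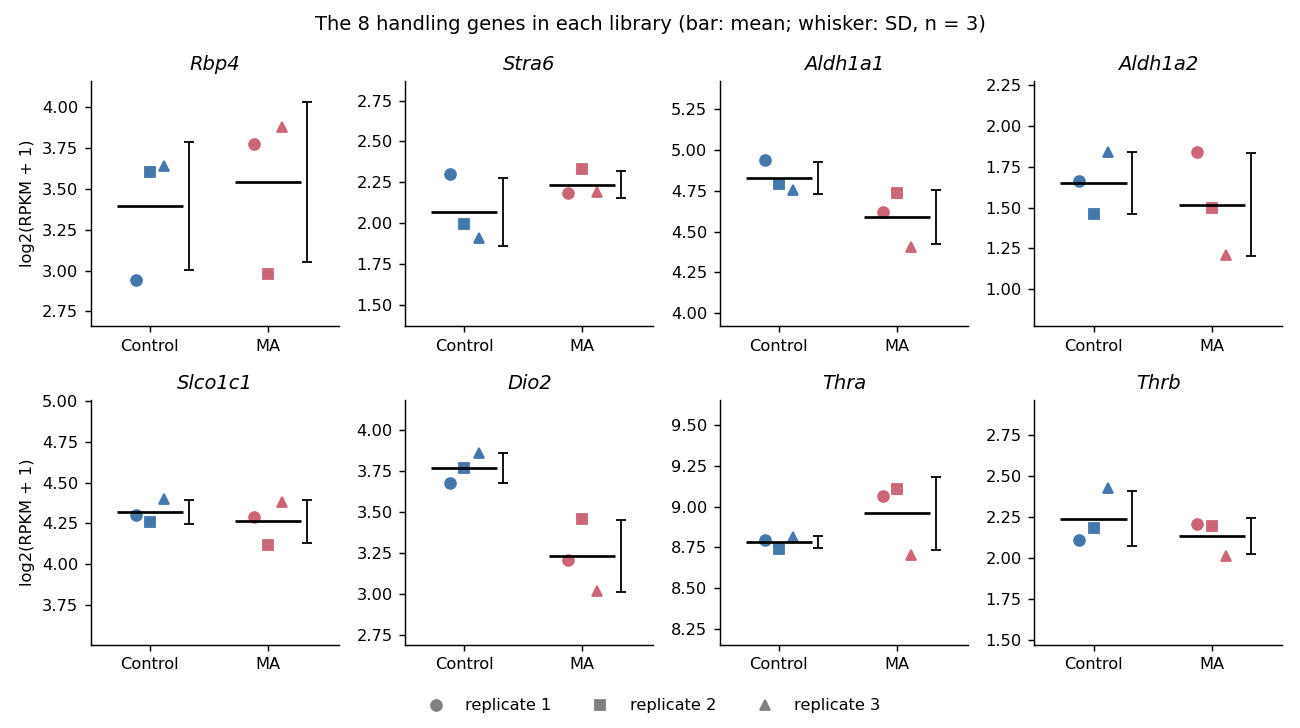
Level of each of the 8 genes as log2(RPKM + 1) on the vertical axis, in Control (blue) and MA (red) libraries, with symbols for replicates, bars for means and whiskers for the SD (n = 3). Every panel spans the same range of log2 units; the MA points of Dio2 and Aldh1a1 sit below all Control points, and the groups overlap for the other 6.

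Dio2 (ENSMUSG00000007682, chr12:90724552-90738438, minus strand, GRCm38) showed the largest difference of the 8. Its log2 values were 3.68, 3.77 and 3.86 in Control replicates 1, 2 and 3, and 3.21, 3.46 and 3.02 in MA replicates 1, 2 and 3. Every MA library was below every Control library, and MA replicate 3 was lowest. In RPKM the mean was 12.6 in Control and 8.45 in MA, a ratio of 0.668. The log2 difference was -0.54 (standard error 0.13, 95% interval -0.84 to -0.24), and 2.61% of all tested genes differed by more in either direction. It was not called, with an adjusted p of 0.220 (limma). By exact permutation over libraries the two-sided p was 0.1, and no smaller value can arise with 3 libraries in each group. Without MA replicate 3 the difference was -0.43 (limma adjusted p = 0.0845), and over all alternatives it stayed between -0.65 and -0.40, with limma adjusted p-values from 0.0613 to 0.600. Astrocyte markers, which could carry Dio2, moved both ways, with 4 of 11 higher and 7 lower in MA and none called (limma, 2 at an unadjusted p under 0.05). Their summed level was 1100 to 1190 RPKM in Control and 991 to 1320 RPKM in MA, and no defining astrocyte marker was listed at 0. The defining markers Aqp4, Gja1, Aldh1l1 and Slc1a2 all had lower means in MA, with log2 differences of -0.36, -0.25, -0.16 and -0.09. Of these only Aqp4 was lower in each MA library than in each Control library. The further astrocyte marker Fgfr3 was higher in MA by 0.62, also without overlap. The tanycyte factor Rax was near 0 in all libraries, with log2 values up to 0.29. The part of these cells in the Dio2 difference was not tested. Of the 5815 exonic bases annotated for Dio2, 100 are shared with the noncoding gene Gm26512 on the other strand, and whether counting used strand is not given in the sources used here.

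Slco1c1 (ENSMUSG00000030235, chr6:141524368-141570177, plus strand) was the steadiest of the 8, spanning 0.29 log2 units over the 6 libraries. Its log2 values were 4.30, 4.26 and 4.40 in Control replicates 1, 2 and 3, and 4.29, 4.12 and 4.38 in MA replicates 1, 2 and 3. The groups overlapped. The log2 difference was -0.06 (standard error 0.10, 95% interval -0.29 to 0.17, limma adjusted p = 0.891), and it turned to 0.01 without MA replicate 2. Vessels, glia and the choroid plexus were named above for such transporters. Markers of brain endothelium summed to 236 to 277 RPKM in Control and 257 to 312 RPKM in MA. Of these, 12 of 12 were higher in MA and none was called (limma, 1 at an unadjusted p under 0.05). Choroid plexus markers were higher in MA for 16 of 16 genes, 7 of them called (limma), and astrocyte markers are given above. The part of these cells in the Slco1c1 values was not tested. Within a library, Slco1c1 stood above Dio2 by 0.62, 0.49 and 0.54 log2 units in Control replicates 1, 2 and 3, and by 1.08, 0.66 and 1.36 in MA replicates 1, 2 and 3. This distance between uptake and activation genes was larger in each MA library than in each Control library, by 0.48 on average (exact permutation test, two-sided, p = 0.1, or 0.133 adjusted over the 4 gene pairs compared). It was 0.32 without MA replicate 3 and 0.67 without MA replicate 2, the lowest and highest values when each library was left out in turn. Slco1c1 differed by -0.06 and Dio2 by -0.54, so the larger distance mainly restates the Dio2 difference.

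Thra (ENSMUSG00000058756, chr11:98740638-98769006, plus strand) encodes the receptor TRα1 and a splice form that does not bind T3, and the gene-level value does not separate them. Its log2 values were 8.80, 8.74 and 8.81 in Control replicates 1, 2 and 3, and 9.07, 9.11 and 8.70 in MA replicates 1, 2 and 3. MA replicates 1 and 2 were above all Control libraries, and MA replicate 3 was below them. MA was higher by 0.17 on the log2 scale (standard error 0.11, 95% interval -0.09 to 0.44, limma adjusted p = 0.664). Without MA replicate 3 it was 0.30 (limma adjusted p = 0.0507), without MA replicate 2 it was 0.099 (limma adjusted p = 0.881), and it was not called under any of the 14 alternatives. Of 4614 exonic bases of Thra, 263 are shared with the clock gene Nr1d1 on the other strand. Nr1d1 was at 5.11 to 5.30 in Control and 4.90 to 5.25 in MA, and without a stated strand setting reads of the shared bases cannot be told apart.

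Thrb (ENSMUSG00000021779, chr14:17660261-18038090, plus strand) had log2 values of 2.11, 2.18 and 2.43 in Control replicates 1, 2 and 3, and of 2.21, 2.19 and 2.01 in MA replicates 1, 2 and 3. The groups overlapped, and the difference of -0.10 was smaller than the Control SD of 0.17 (standard error 0.12, 95% interval -0.39 to 0.18, limma adjusted p = 0.835). It was -0.0084 without Control replicate 3, -0.040 without MA replicate 3 and -0.17 without Control replicate 1. Thra exceeded Thrb by 6.69, 6.56 and 6.38 log2 units in Control replicates 1, 2 and 3 and by 6.86, 6.91 and 6.69 in MA replicates 1, 2 and 3. In RPKM this is 102 to 134 times in Control and 137 to 154 times in MA, and all MA libraries were above all Control libraries. The distance was 0.28 log2 units larger in MA (exact permutation test, two-sided, p = 0.1, or 0.133 adjusted over the 4 pairs), and it was from 0.20 to 0.35 when each library was left out in turn. The narrowest gap between the groups lay between Control replicate 1 and MA replicate 3, which differed by less than the SD of either group.

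**Figure D2:**
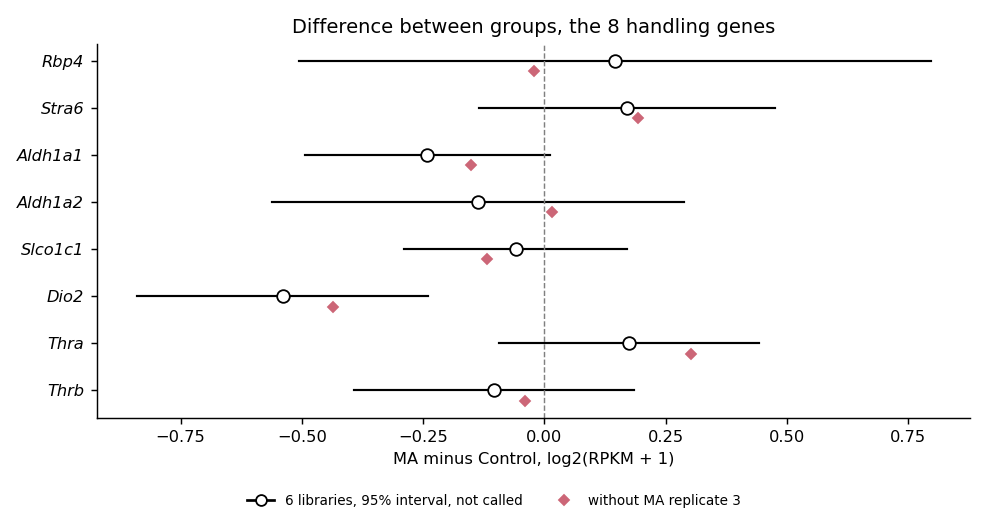
Difference between MA and Control for the 8 genes in log2(RPKM + 1), with limma's 95% interval as a line, and the difference without MA replicate 3 as a red diamond. Only the interval of Dio2, from -0.84 to -0.24, lies wholly on one side of 0, and its point is open because its adjusted p of 0.220 did not pass; the diamonds of Rbp4 and Aldh1a2 lie across 0 from their main values.

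Rbp4 (ENSMUSG00000024990, chr19:38116629-38125281, minus strand) varied most between libraries of the same group. Its log2 values were 2.95, 3.60 and 3.64 in Control replicates 1, 2 and 3, and 3.77, 2.98 and 3.88 in MA replicates 1, 2 and 3. Control replicate 1 and MA replicate 2 were both low, and the other 4 libraries were close together. MA was higher by 0.15 on the log2 scale (standard error 0.28, 95% interval -0.51 to 0.80, limma adjusted p = 0.907), well within the SDs of 0.39 and 0.49. It changed sign without MA replicate 3, at -0.02, and without Control replicate 1, at -0.08, and was 0.43 without MA replicate 2.

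Stra6 (ENSMUSG00000032327, chr9:58063788-58153996, plus strand) was at 2.30, 1.99 and 1.91 in Control replicates 1, 2 and 3, and at 2.18, 2.33 and 2.19 in MA replicates 1, 2 and 3. Control replicate 1 lay among the MA libraries, so the groups overlapped. The log2 difference was 0.17 (standard error 0.13, 95% interval -0.13 to 0.47, limma adjusted p = 0.714), positive in all 14 alternatives and called in none. Its size depended on the Control libraries, with 0.09 without Control replicate 3 and 0.29 without Control replicate 1.

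The levels of Rbp4 and Stra6 were set beside the choroid plexus markers, since the choroid plexus is a site of retinol transfer to the cerebrospinal fluid. Ttr, which encodes the plasma partner of RBP4 and a thyroxine carrier, was at 5.87, 7.39 and 8.68 in Control replicates 1, 2 and 3, and at 10.77, 11.14 and 12.30 in MA replicates 1, 2 and 3. Every MA library was above every Control library, and the Control libraries themselves spread widely. The log2 difference was 4.09 (standard error 0.69, limma adjusted p = 0.0887), so it was not called, and it passed with the replicate number as a block (limma adjusted p = 0.0227) and with sample quality weights (limma adjusted p = 0.0212), but in no fit that left out 1 library (limma adjusted p from 0.0625 to 0.327). In MA replicate 3 Ttr was the highest gene of the table, at the top value of 12.30 that all 6 libraries share. The other 15 choroid plexus markers summed to 46.9 to 72.6 RPKM in Control and 202 to 304 RPKM in MA, and no defining marker of the list was at 0. This sum rests mainly on Enpp2, the highest of the 15 in each library, at 5.12 to 5.81 in Control and 7.22 to 7.79 in MA. With Ttr, 15 of the 16 markers were higher in MA without overlap. The defining marker Tmem72 differed by 0.08, with overlap. Rbp4 minus Ttr was -2.93, -3.78 and -5.04 in Control replicates 1, 2 and 3, and -7.00, -8.16 and -8.42 in MA replicates 1, 2 and 3. This distance was 3.94 log2 units more negative in MA, with no overlap (exact permutation test, two-sided, p = 0.1, or 0.133 over the 4 pairs). Rbp4 differed by 0.15 and Ttr by 4.09, so the distance restates the Ttr difference and is not a result about Rbp4.

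**Figure D3:**
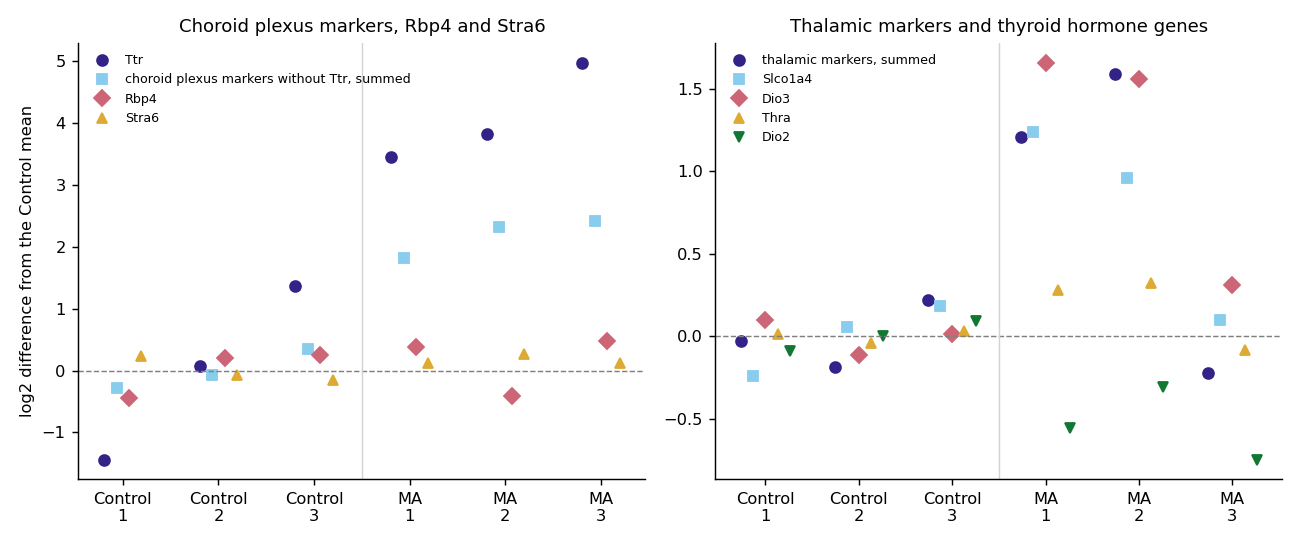
Log2 difference of each library from the Control mean, for Ttr, the sum of the other choroid plexus markers, Rbp4 and Stra6 (left), and for the sum of thalamic markers, Slco1a4, Dio3, Thra and Dio2 (right). On the left Ttr and the markers lie between 1.82 and 4.98 in MA while Rbp4 and Stra6 stay between -0.45 and 0.48 in all 6 libraries; on the right the thalamic sum, Slco1a4, Dio3 and Thra are higher in MA replicates 1 and 2 than in MA replicate 3, and Dio2 is low in all 3 MA libraries.

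Aldh1a1 (ENSMUSG00000053279, chr19:20492715-20643465, plus strand) was at 4.94, 4.79 and 4.76 in Control replicates 1, 2 and 3, and at 4.62, 4.74 and 4.41 in MA replicates 1, 2 and 3. All MA libraries were lower, but Control replicate 3 and MA replicate 2 were 0.02 apart. For Aldh1a1 the log2 difference was -0.24 (standard error 0.11, 95% interval -0.49 to 0.01) and was not called (limma adjusted p = 0.499, and exact permutation test, two-sided, p = 0.1). Without MA replicate 3 it was -0.15 (limma adjusted p = 0.326). ALDH1A1 also marks midbrain dopamine neurons, whose defining genes Th and Slc6a3 had log2 values of at most 0.64 in these libraries.

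Aldh1a2 (ENSMUSG00000013584, chr9:71215789-71296243, plus strand), the retinoic acid enzyme of the meninges, was at 1.66, 1.46 and 1.84 in Control replicates 1, 2 and 3, and at 1.84, 1.499 and 1.21 in MA replicates 1, 2 and 3. MA replicate 3 was lowest and the others were mixed. For Aldh1a2 the log2 difference was -0.14 (standard error 0.18, 95% interval -0.56 to 0.29, limma adjusted p = 0.853), and it was 0.02 without MA replicate 3. Markers of meningeal fibroblasts had a median log2 difference of 0.07 over 11 genes, with 10 higher in MA and 1 called, Slc13a4, a sulfate transporter that the choroid plexus also expresses. Their sum was 44.5 to 55.0 RPKM in Control and 90.1 to 117 RPKM in MA, with log2 differences of 1.26 for Igf2 and 1.31 for Dcn, neither called, and of 0.02 for the collagen gene Col1a1 and 0.07 for Lum. Within a library Aldh1a1 exceeded Aldh1a2 by 2.92 to 3.33 log2 units in Control and by 2.78 to 3.24 in MA, with overlap (exact permutation test, two-sided, p = 0.5, unchanged by adjustment over the 4 pairs).

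The other genes of retinoid handling were taken from a list of 38, of which 36 had a row and 25 were tested. Of these, 14 were higher and 11 lower in MA, none was called (limma), and 7 had an unadjusted p under 0.05. The groups did not overlap for 5 higher and 3 lower genes, and the median log2 difference was 0.03. Over all tested genes, 10.4% had an unadjusted p under 0.05 (limma) and the groups did not overlap for 17.5%. Ttr, given above, had the smallest p. Cyp26b1, which breaks down retinoic acid, was at 2.27, 2.03 and 1.81 in Control replicates 1, 2 and 3, and at 1.30, 1.54 and 1.52 in MA replicates 1, 2 and 3. Its log2 difference was -0.58 (standard error 0.15, limma adjusted p = 0.241), and all MA libraries were lower. Rdh5, a retinol dehydrogenase, was at 2.60, 2.42 and 2.65 in Control and at 3.12, 3.54 and 4.45 in MA, a log2 difference of 1.15 (limma adjusted p = 0.264). Rlbp1, a retinaldehyde binding protein, had a difference of -0.49, Fabp5, a fatty acid binding protein that also carries retinoic acid, of -0.23, and Rdh11, a retinal reductase, of -0.25. Their limma adjusted p-values were 0.380, 0.390 and 0.413. The Fabp5 and Rdh11 values were lower in each MA library than in each Control library, and those of Rlbp1 overlapped.

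Thyroid hormone handling and receptor cofactors made a list of 29, of which 26 had a row and 24 were tested. Here 13 were higher and 11 lower in MA, with 1 called, 7 at an unadjusted p under 0.05, and a median log2 difference of 0.08. The groups did not overlap for 9 higher and 2 lower genes. Over all tested genes, 0.263% were called, 10.4% had an unadjusted p under 0.05 (limma) and the groups did not overlap for 17.5%. Ttr is counted in this list and in the retinoid list. Sult1a1, a sulfotransferase that can act on iodothyronines, rose from 3.30, 3.53 and 3.30 in Control replicates 1, 2 and 3 to 4.23, 4.49 and 4.35 in MA replicates 1, 2 and 3. Its log2 difference was 0.98 (standard error 0.11, limma adjusted p = 0.0315). The call held without MA replicate 3 (limma adjusted p = 0.0274) and was lost in the 5 other fits that left out 1 library, where the limma adjusted p was from 0.0509 to 0.142, with no filter (limma adjusted p = 0.0684) and with the replicate number as a block (limma adjusted p = 0.0877). Itgav, the αv part of an integrin that binds thyroxine, was at 3.89, 3.99 and 3.85 in Control and at 3.31, 3.35 and 3.22 in MA, a log2 difference of -0.62 (limma adjusted p = 0.0570). Without MA replicate 3 its difference was -0.58 and passed (limma adjusted p = 0.0301), and it did not pass in the 5 other such fits, with limma adjusted p-values from 0.142 to 0.287.

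Dio3, the enzyme that inactivates thyroxine and T3, stood opposite to Dio2 in direction. It was at 0.74, 0.53 and 0.65 in Control replicates 1, 2 and 3, and at 2.30, 2.20 and 0.95 in MA replicates 1, 2 and 3. All MA libraries were higher, MA replicate 3 by the least. The log2 difference of 1.18 (standard error 0.34, limma adjusted p = 0.296) was not called, and without MA replicate 3 it was 1.61 and passed (limma adjusted p = 0.0124). Leaving out each of the other 5 libraries gave limma adjusted p-values from 0.521 to 0.719 and a difference as low as 0.94. Slco1a4, an organic anion transporter of brain vessels that also carries thyroxine, followed the same libraries, with 4.85 and 4.57 in MA replicates 1 and 2 and 3.70 in MA replicate 3, beside 3.37 to 3.79 in Control. Its log2 difference was 0.77 (limma adjusted p = 0.413), or 1.10 without MA replicate 3 (limma adjusted p = 0.0298), and the 5 other such fits gave limma adjusted p-values from 0.609 to 0.844. Crym, a cytosolic T3-binding protein, was at 7.26, 7.32 and 6.94 in Control and at 7.49, 7.72 and 7.58 in MA. Its log2 difference of 0.42 was not called (limma adjusted p = 0.290), and no Control library reached any MA library.

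Thalamic neuron markers followed the same split of the MA libraries as Thra, Dio3 and Slco1a4. They summed to 32.0, 28.8 and 38.1 RPKM in Control replicates 1, 2 and 3, and to 75.7, 98.6 and 28.1 RPKM in MA replicates 1, 2 and 3. All 8 were higher in MA on average and none was called (limma, 2 at an unadjusted p under 0.05), and no defining marker was at 0. The part of thalamic neurons in the values of Thra, Dio3 and Slco1a4 was not tested. The split was not particular to thalamic markers. In MA replicates 1, 2 and 3, astrocyte markers summed to 1320, 1310 and 991 RPKM, and brain endothelium markers to 312, 300 and 257 RPKM. Sums of choroid plexus, meningeal, ependymal and midbrain dopamine markers were instead highest in MA replicate 3. For hippocampal neuron and red blood cell markers, MA replicate 3 lay between the other MA libraries. Not every gene followed the sum of its list. In MA replicates 1, 2 and 3, the choroid plexus marker Folr1 was at 3.28, 4.17 and 2.94 on the log2 scale. The meningeal marker Dcn was at 4.61, 4.49 and 3.62. Ttr and Igf2, the highest genes of these lists, were highest in MA replicate 3. Of the remaining marker lists, ependymal cells and tanycytes had 5 of 6 tested genes higher, with summed levels of 33 to 55.5 RPKM in Control and 38.4 to 74.9 RPKM in MA. Of midbrain dopamine neuron markers 2 of 4 were tested, with 1 higher and 1 lower, and the 4 summed to 5.36 to 6.75 RPKM in Control and 6.44 to 8 RPKM in MA. Red blood cell markers summed to 1600 to 2020 RPKM in Control and 3320 to 4380 RPKM in MA.

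**Figure D4:**
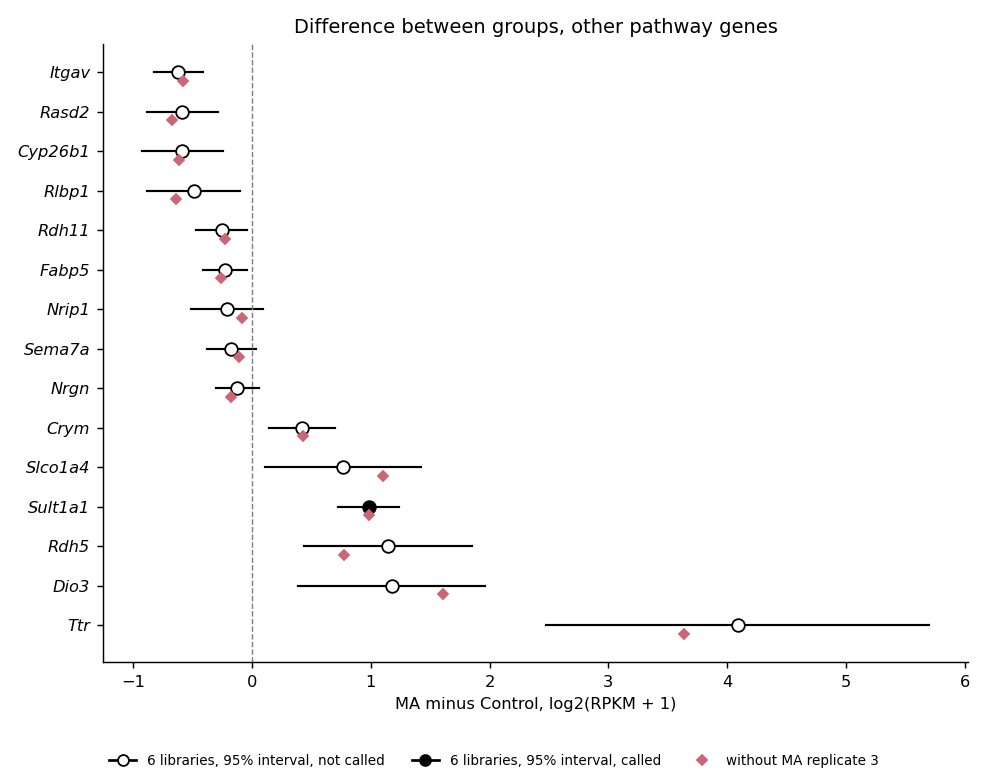
Difference between MA and Control in log2(RPKM + 1) for the 15 other pathway genes named here, with limma's 95% interval as a line, a filled point for a called gene and a red diamond for the difference without MA replicate 3. Sult1a1 alone is filled, at 0.98, and the diamonds of Dio3 and Slco1a4 lie to the right of their points, at 1.61 and 1.10.

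Target genes of the receptors were read from a list of 19 known for thyroid hormone or retinoic acid response, of which 16 were tested. Of these, 5 were higher and 11 lower in MA, none was called (limma), 2 had an unadjusted p under 0.05, and the median log2 difference was -0.10. The groups did not overlap for 4 lower genes and 1 higher gene, beside 17.5% of all tested genes, and 10.4% of those had an unadjusted p under 0.05 (limma). Rasd2, a small GTPase induced by thyroid hormone in striatum, was at 4.99, 4.73 and 4.67 in Control replicates 1, 2 and 3, and at 4.03, 4.22 and 4.38 in MA replicates 1, 2 and 3. Its log2 difference was -0.58 (standard error 0.13, limma adjusted p = 0.190), and without MA replicate 3 it was -0.67 and passed (limma adjusted p = 0.0475). It did not pass in any of the 5 other fits that left out 1 library, where the limma adjusted p was from 0.323 to 0.625. Cyp26b1, itself induced by retinoic acid, is given above. The log2 differences were -0.17 for Sema7a, a semaphorin, -0.21 for Nrip1, a nuclear receptor corepressor, and -0.12 for Nrgn, a calmodulin-binding protein of dendrites. Their limma adjusted p-values were from 0.558 to 0.654, and only the Nrgn groups overlapped.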

How the data were processed

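The authors deposited 1 table of HIPP RNA-seq values, named as RPKM, for 6 libraries. The paper's methods name Hisat2 for alignment and featureCounts for counting of paired-end reads, while the submitters' processing notes list Bowtie 0.12.2 with builds mm8 and mm9, so the build is unsettled. The library kits named in the labels and in the paper differ as well. The deposited values lie on a log2 scale with an inferred offset of 1. Back-transformed sums were 487712 to 488572 per library read as log2 and 6553046 to 6568165 read as natural log, and the former was taken as the scale of RPKM. The highest value is common to all libraries. Any normalization between libraries and the strandedness of counting are not given in the sources used here. The values themselves repeat exactly across libraries, with 10.7688 for Nrgn in Control replicate 2, Mbp in MA replicate 2 and Ttr in MA replicate 1. With the common maximum and near-equal sums, the libraries hold nearly the same set of values, as quantile normalization leaves them. No other value column was used.

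The design was written for log2 values, and limma 3.58.1 (R 4.3.3, lmFit, eBayes with trend) was fitted to the deposited values of all 6 libraries, MA against Control, without covariates. P-values measure only the spread between the sampled libraries. The test was checked on simulated data. Groups came from the sample titles. Genes named beyond the 8 were those called in each pathway list and the 6 of smallest unadjusted p among the rest, of which 2 are not reported here. No gene was named for a pattern like that of a member, since no member spanned over 1 log2 unit. Within-library differences of 4 gene pairs were tested by exact permutation. The genes and lists were chosen with earlier results of these data known. Positions are those of GENCODE M21 (GRCm38), matched on Ensembl identifiers (13283 of 13302), and promoter sequences those of RefSeq (GRCm38.p6). Alternatives were an offset of 0.1, no filter, a filter on the mean, median centring, quantile normalization, no trend, sample quality weights, the replicate block and leaving out each library.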

Additional observations from a re-analysis of the deposited data

How the results depend on the processing

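The count of called genes among the 8 was 0 in all 14 alternatives. Median centring and quantile normalization say little about normalization here, since the libraries already hold nearly the same set of values. Of the log2 differences of the 8 genes, those of Stra6, Aldh1a1, Dio2, Thra and Thrb kept their sign throughout. Rbp4 turned negative with sample quality weights, at -0.21. It ranged from -0.0803 to 0.428 when 1 library was left out in turn, Slco1c1 from -0.117 to 0.0141 and Aldh1a2 from -0.299 to 0.0166. Aldh1a1 minus Aldh1a2 ranged from -0.233 to 0.0424 in the same fits, positive without MA replicate 1.

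Over all tested genes 35 were called. No filter gave 3, sample quality weights 586 and the replicate block 15. Leaving out 1 library in turn gave 0 to 257, the highest without MA replicate 3, with 15 without MA replicate 1, 3 without Control replicate 1 and 0 without each of the others. Deviations from the group mean at the same replicate number correlated negatively (-0.197, -0.242 and -0.337), which shows no pairing. With 3 libraries per group these correlations cannot exclude pairing, and the replicate block changed no call among the 8 genes. In the retinoid list sample quality weights called 4 genes and the replicate block 1, where the main count was 0. In the thyroid hormone list, with 1 called, no filter gave 0, sample quality weights 6, and leaving out 1 library 0 to 4. In the target list, with 0 called, sample quality weights gave 1 and leaving out 1 library 0 to 1. The weights set MA replicate 3 at 0.194, beside 0.937 to 2.45 for the others. The cause of these changes was not tested. Depth is unknown, so no interval for counting error is given.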
